A study of Mus musculus with 8 samples.

Results

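Glutathione is the main small thiol of animal cells, and the 39 genes described here encode the proteins that make it, recycle it, use it, break it down and carry it into mitochondria. They were taken by symbol from a deposited table of 24630 genes, and all 39 were found. They were sorted by role into 7 classes: synthesis and cysteine supply (6 genes), recycling (4), peroxidases (5), degradation (7), soluble transferases (12), membrane transferases (3) and mitochondrial import (2). The rule used names only and no measured value.

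Messenger RNA was sequenced from muscle stem cells of male C57BL/6 mice, 4 animals aged 4 months (young) and 4 aged 22 months (old), with 1 library from each animal. The labels name no transgene and no treatment for either age. Cells of both ages were sorted freshly from limb muscle as CD45-, CD31-, Sca1- and VCAM+, which are surface markers and do not by themselves exclude every other cell type. The study calls them quiescent, that is resting and not yet activated, and the comparison asks which transcripts differ with age.

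Glutathione is built in the cytosol from glutamate, cysteine and glycine. The first and rate-limiting bond is made by glutamate-cysteine ligase, a catalytic subunit (Gclc) with a modifier subunit (Gclm), and the second by glutathione synthetase (Gss). Peroxidases oxidise glutathione to remove peroxides, glutathione reductase (Gsr) restores it with NADPH, and transferases join it to reactive compounds. Many of these genes are known targets of the transcription factor NRF2, and in muscle stem cells glutathione is known to take part in redox control and in protection from lipid peroxidation.

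The 5 peroxidases divide by the residue that attacks the peroxide, and the coding sequence shows the division directly. Each line below is the 27-base stretch around that residue in a GENCODE M21 transcript (GRCm38), written 5′ to 3′ in coding direction, with the codon of the attacking residue in capitals. The stretches lie within single coding exons, at chr9:108339436-108339462 for Gpx1, chr11:54907241-54907267 for Gpx3 and chr10:80054722-80054748 for Gpx4 (plus strand), and at chr4:108403421-108403447 for Gpx7 and chr13:113045652-113045678 for Gpx8 (minus strand).
Gpx1: aatgtcgcgtctctcTGAggcaccacg
Gpx3: aacgtagccagctacTGAggtctgaca
Gpx4: aacgtggcctcgcaaTGAggcaaaact
Gpx7: aacgtagctagcgaaTGTggcttcaca
Gpx8: aacgtggctagtgacTGCcgcttcaca
In Gpx1, Gpx3 and Gpx4 the codon is TGA, a stop codon elsewhere, and the annotation marks it as selenocysteine. In Gpx7 and Gpx8, which reside in the endoplasmic reticulum, it is a cysteine codon. The levels and differences of these 5 genes are given below.

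The antioxidant response element, the site that NRF2 binds, was searched as TGACNNNGC on both strands (GCNNNGTCA on the other) in RefSeq promoters of GRCm38.p6, from 250 bases before to 50 after each annotated start. Of the 39 genes 32 had a promoter in that set, all but Gclc, Cth, Gsr, Oplah, Ggt5, Gsta4 and Gstt2, and 6 of the 32 (18.8%) held the letters, against 13.99% of all genes with a promoter there. They were Gclm, Ggct, Ggt1, Gstm5, Mgst1 and Slc25a40. Of these 6, Ggct, Ggt1 and Slc25a40 lay below the minimum of the test described below, and Gstm5 and Mgst1 were not called in it. Glrx, Gstp1 and Gsto1, called higher in that test, and Gpx7 and Gstz1, called lower, had promoters in the set without the letters. Gclm was called higher, so its stretch is shown, with the matched letters in capitals.
Gclm: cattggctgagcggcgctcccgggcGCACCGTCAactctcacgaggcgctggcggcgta
It lies at chr3:122245398-122245456 on the plus strand, and the match begins 134 bases before the start. A match is a description of these letters and not evidence of binding.

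The recovered reads in genes numbered 1.91 to 6.56 M in young libraries and 20.1 to 24.9 M in old ones (M, mega), so every old library was deeper than every young one, and depth and age cannot be told apart. Levels are given as RPKM on library totals, that is reads per kilobase of exon and per M reads in genes. Genes of the olfactory and vomeronasal receptor families (1411 genes), taken here as mostly silent in muscle cells, averaged 0.202 to 0.983 RPKM in young libraries and 0.0163 to 0.0359 RPKM in old ones. Single receptors were not examined. Levels in that range are therefore not read as expression. In young libraries 3 reads over 1 kb of exon were worth 0.458 to 1.57 RPKM, and in old ones 0.121 to 0.149 RPKM. Such limits speak of counting error alone, since copies made by amplification are counted too.

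Gpx3 had the highest RPKM of all genes in the table in each of the 8 libraries. This gene encodes a peroxidase that is secreted from cells. Its levels in the young libraries 1 to 4 were 9778, 7230, 10415 and 9196 RPKM, and in the old libraries 10141, 11481, 10709 and 11821 RPKM. It took 1.31% to 1.89% of all reads in genes in the young and 1.84% to 2.14% in the old libraries. Of the summed RPKM of the 39 genes, Gpx3 alone made up 89.4% to 92.1% in the young and 90.6% to 92.2% in the old libraries.

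The next levels were far lower. Gstm1, a mu-class transferase, averaged 317 ± 39.3 RPKM in young libraries and 390 ± 87.8 RPKM in old ones (SD, n = 4 each), and the pi-class Gstp1 54.5 ± 4.59 and 134 ± 24.0 RPKM. Gpx4, which reduces peroxides within membranes, averaged 71.5 ± 12.03 and 72.4 ± 15.0003 RPKM, and the endoplasmic reticulum peroxidase Gpx8 40.3 ± 1.19 and 33.2 ± 1.44 RPKM. The ligase subunits were lower again, with Gclc at 7.02 ± 1.85 and 14.1 ± 3.71 RPKM. At the other end, Ggt1, the gamma-glutamyl transpeptidase that starts breakdown outside the cell, had 0.464 to 1.09 RPKM in young and 0 to 0.117 RPKM in old libraries, from 38 and 14 reads in all. Mgst2, a membrane transferase, had 0.601 to 2.12 and 0.0354 to 0.323 RPKM. Both genes reach into the range of the receptor families in each age, and no difference is read from them.

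**Figure D1:**
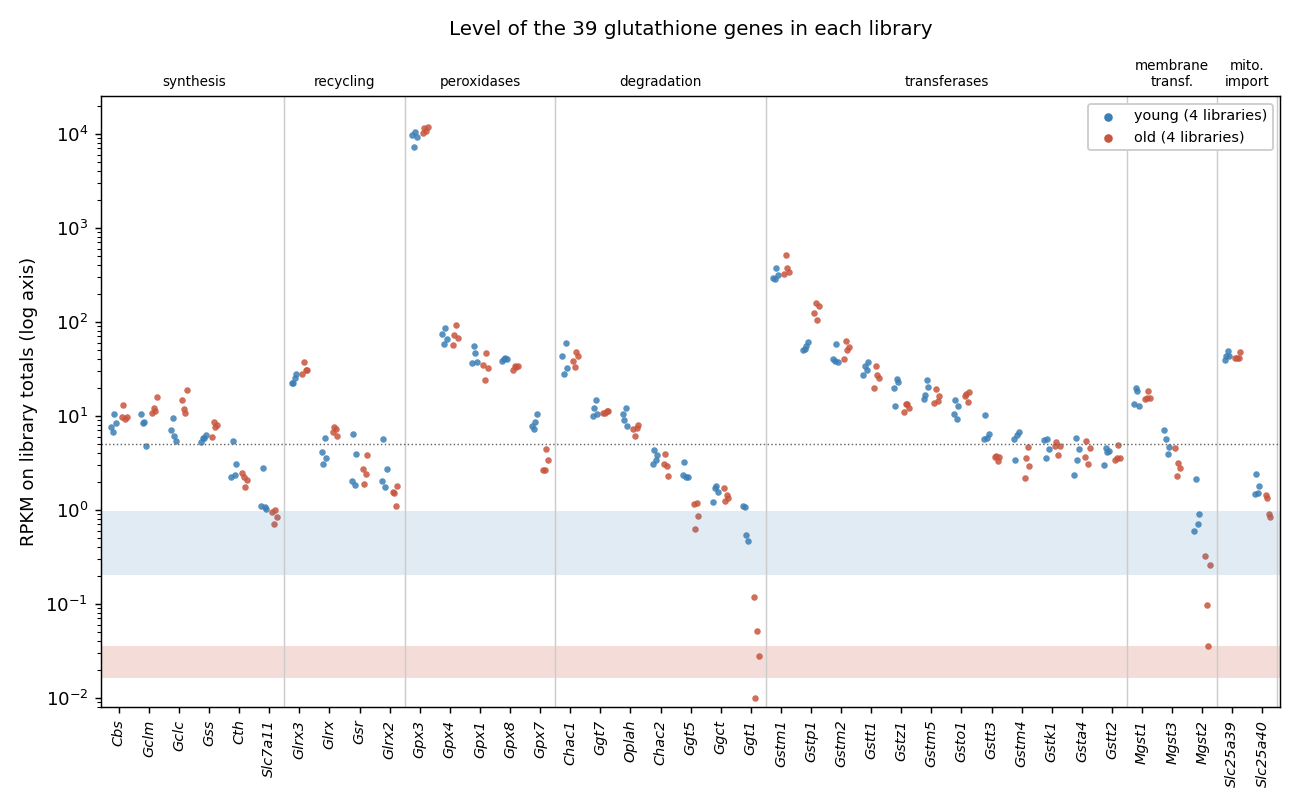
RPKM on library totals (vertical log axis) for each of the 39 genes (horizontal axis, by class) in the 4 young (blue) and 4 old (red) libraries, with 1 point per library. The blue and red bands are the ranges of the receptor families in young and old libraries, the dotted line is 5 RPKM, and the old library with no Ggt1 read is drawn at 0.01; Gpx3 lies at 7230 RPKM or more in every library.

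Old and young libraries were compared with limma on log2(RPKM + 1), with Benjamini-Hochberg adjustment over 5703 genes with a mean of at least 5 deposited RPKM and a threshold of 0.05. "Rose" and "fell" below mean past that threshold on library totals, so that they speak of a gene's share of the reads. Fewer cells of a type that express a gene and less of its RNA per cell cannot be told apart in such bulk libraries. Of the 39 genes 23 were tested and 16 lay below the minimum. Among the 23, 5 rose (Gclc, Gclm, Glrx, Gstp1 and Gsto1), 2 fell (Gpx7 and Gstz1) and 16 were not called. Over all genes tested 12.3% were higher and 12.5% lower, against 21.7% and 8.70% of the 23. The median log2 fold change was 0.05 for the 23 genes and -0.01 for all genes tested.

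The deposited values use other library sizes, 1.14 to 1.64 times the reads in young and 0.678 to 0.849 times the reads in old libraries, which moves the median of all genes tested to 0.64. The minimum of 5 RPKM was set on these values, so genes higher in old animals passed it more easily than genes higher in young ones. Gstt3 fell just short with a deposited mean of 4.98 RPKM, although its means on library totals were 6.98 (young) and 3.60 (old). It was called lower with a minimum of 1 RPKM. The balance of higher and lower calls among the glutathione genes may depend on this choice. A minimum on library totals was not tested. On that deposited scale 16 of the 23 genes were higher and 1 lower, where 68.1% of all genes tested were higher and 1.12% lower, and the median of the 23 was 0.73. The 5 genes that rose on library totals were also called higher there and Gpx7 was also called lower, while Gstz1 had 0.04 and was not called. Of the 9 tested genes with a negative estimate on library totals, Gpx7 alone stayed negative on the deposited scale.

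**Figure D2:**
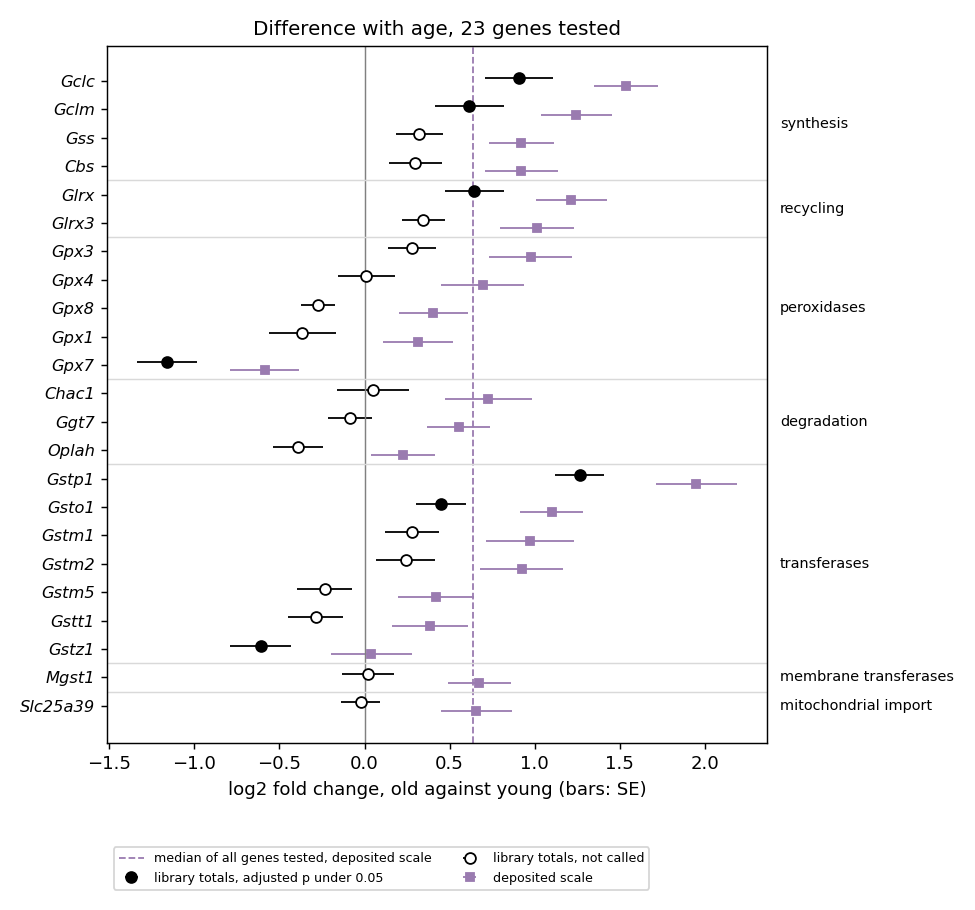
Log2 fold change of old against young (horizontal axis, bars are SE) for the 23 genes tested, by class, on library totals (circles, filled where the adjusted p was under 0.05) and on the deposited scale (squares). The dashed line is the deposited-scale median of all genes tested, 0.64, and their median on library totals was -0.01. Gpx1, Gpx8, Oplah, Ggt7, Gstm5, Gstt1, Gstz1 and Slc25a39 change sign between the scales.

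In glutathione synthesis both ligase subunits made up a larger share of reads in old animals. Gclc (chromosome 9, 77754535 to 77794485, plus strand) had 7.10, 9.58, 6.03 and 5.37 RPKM in young libraries 1 to 4 and 14.9, 11.9, 10.6 and 19.0 RPKM in old libraries 1 to 4. All old values lay above all young ones, and the ratio of the means was 2.01. The log2 fold change was 0.91 ± 0.20 (SE; limma, adjusted p = 0.00839), and the deposited scale gave 1.54. The call held whichever library was omitted, the weakest being adjusted p = 0.0270 (limma) without young library 1.

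Gclm (chromosome 3, 122245557 to 122270732, plus strand), the modifier subunit, had 10.4, 8.31, 8.53 and 4.78 RPKM in young and 10.8, 12.2, 11.2 and 16.02 RPKM in old libraries. The groups did not overlap, but the highest young and the lowest old library lay close together. The log2 fold change was 0.62 ± 0.20 (limma, adjusted p = 0.0461), and 1.24 in deposited RPKM. The call was lost with each library but young library 1 left out, reaching adjusted p = 0.129 (limma) without old library 4, whose value was the highest. It was also lost with all libraries thinned to equal reads (limma, adjusted p = 0.0533). Within each library, Gclc stood at 0.680 to 1.153 times the level of Gclm in young and 0.947 to 1.38 times in old animals, ranges that overlap.

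The later and supplying steps were not called on library totals. Gss, which adds glycine, had 5.27 to 6.18 RPKM in young and 5.90 to 8.50 RPKM in old libraries, and had a log2 difference of 0.32 ± 0.14 (limma, adjusted p = 0.110). Cbs, the first enzyme of the route from homocysteine to cysteine, had 0.30 ± 0.15 (limma, adjusted p = 0.176). On the deposited scale both were called higher, each with 0.92. Cth, the second enzyme of that route, and Slc7a11, the exchanger that imports cystine, lay below the minimum at 2.26 to 5.43 and 1.022 to 2.82 RPKM in young and 1.74 to 2.46 and 0.699 to 0.992 RPKM in old libraries. With a minimum of 1 RPKM they were tested and not called (log2 fold changes -0.40 and -0.37). Young library 2, the one with the fewest reads and the highest receptor-family level, was the highest of the 8 for both.

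In recycling, the cytosolic glutaredoxin Glrx, which uses glutathione to free protein thiols, rose. It had 4.14, 3.11, 5.78 and 3.53 RPKM in young and 6.67, 7.69, 7.25 and 6.07 RPKM in old libraries, with no overlap. The log2 fold change was 0.65 ± 0.17 (limma, adjusted p = 0.0200), and 1.22 in deposited RPKM. Glrx passed the minimum of 5 RPKM only through the old libraries, with deposited means of 3.36 RPKM in young and 8.88 RPKM in old. At a minimum of 1 RPKM it was also called (limma, adjusted p = 0.0161). Its young values rest on 101 recovered reads in all, with 8 in the library with the fewest. The length of Glrx had to be searched, so these counts may be too low, which would affect its thinned and limma-voom results. The call was lost without young library 4 or old library 2 (adjusted p = 0.0568 in limma without old library 2), and with all libraries thinned to equal reads the estimate was 0.25 (limma, adjusted p = 0.455). Without the 2 young libraries with the fewest reads it was 0.51 (limma, adjusted p = 0.0974), and limma-voom on the reads gave an adjusted p of 0.0501.

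Glrx3, a glutaredoxin that handles iron-sulphur clusters, was not called on library totals. It had 22.6, 22.4, 25.5 and 28.2 RPKM in young and 27.8, 37.5, 30.5 and 30.8 RPKM in old libraries, a difference of 0.34 ± 0.13 (log2; limma, adjusted p = 0.0693), with 1.015 on the deposited scale. Only young library 4 reached above the lowest old value. The reductase Gsr and the mitochondrial glutaredoxin Glrx2 were below the minimum and not called at 1 RPKM, with 1.83 to 6.46 and 1.74 to 5.72 RPKM in young and 1.87 to 3.87 and 1.10 to 1.79 RPKM in old libraries. The highest value of each was again that of young library 2.

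Among the peroxidases Gpx7 fell, and 0 of the 3 selenocysteine peroxidases were called on library totals, by limma-trend or limma-voom. At an unadjusted p under 0.05 limma-trend had 0 of the 5 peroxidases higher and 2 lower, Gpx7 and Gpx8. The share of all genes tested that passed this unadjusted threshold was not computed, so no class-wide fall is read from these counts. Gpx7 (chromosome 4, 108400390 to 108406961, minus strand) had 7.77, 7.30, 8.64 and 10.4 RPKM in young and 2.67, 2.65, 4.48 and 3.36 RPKM in old libraries. Every old value was below every young one, and the old mean was 0.386 times the young. Gpx7 passed the minimum of 5 RPKM only through the young libraries, with deposited means of 6.85 RPKM in young and 4.16 RPKM in old. Its young values rest on 194 recovered reads in all, with 18 in the library with the fewest. The log2 fold change was -1.16 ± 0.17 (limma, adjusted p = 0.00170), and -0.59 in deposited RPKM (limma, adjusted p = 0.0137). It was called in each of the 18 alternatives that tested it, with limma adjusted p-values up to 0.0189; a minimum of 10 RPKM left it untested. Gpx8, the other cysteine peroxidase, had 38.7, 40.7, 41.6 and 40.3 RPKM in young and 31.1, 34.2, 33.4 and 34.1 RPKM in old libraries. These groups did not overlap either, but the difference was small, -0.27 ± 0.10 on the log2 scale (limma, adjusted p = 0.0643), and the estimate was 0.40 on the deposited scale.

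Gpx3 differed by 0.28 ± 0.14 (log2; limma, adjusted p = 0.167), and in deposited RPKM by 0.98 (limma, adjusted p = 0.00172). The old libraries overlapped the young through young library 3, at 10415 RPKM. Gpx4 had 74.5, 58.5, 86.7 and 66.4 RPKM in young and 57.0, 72.7, 92.7 and 67.2 RPKM in old libraries, the spread within each age being wider than the gap between the ages. Its log2 fold change was 0.01 ± 0.17 (limma, adjusted p = 0.971). On the deposited scale, where the median of all genes tested was 0.64, Gpx4 had 0.70 and was called higher (limma, adjusted p = 0.0156). Gpx1, the cytosolic and mitochondrial peroxidase, had 36.1 to 55.5 RPKM in young and 24.1 to 46.4 RPKM in old libraries, a difference of -0.36 ± 0.20 (log2; limma, adjusted p = 0.196). The sign of Gpx1 and Gpx8 depends on the scaling, with 0.31 and 0.40 on the deposited scale. Annotated transcripts of other genes, among them a processed copy named Gpx4-ps2, hold 474 of the 1891 stretches of 101 bases (the read length) in Gpx4, so its level is uncertain to that extent, whereas Gpx1, Gpx3, Gpx7 and Gpx8 shared 0.

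**Figure D3:**
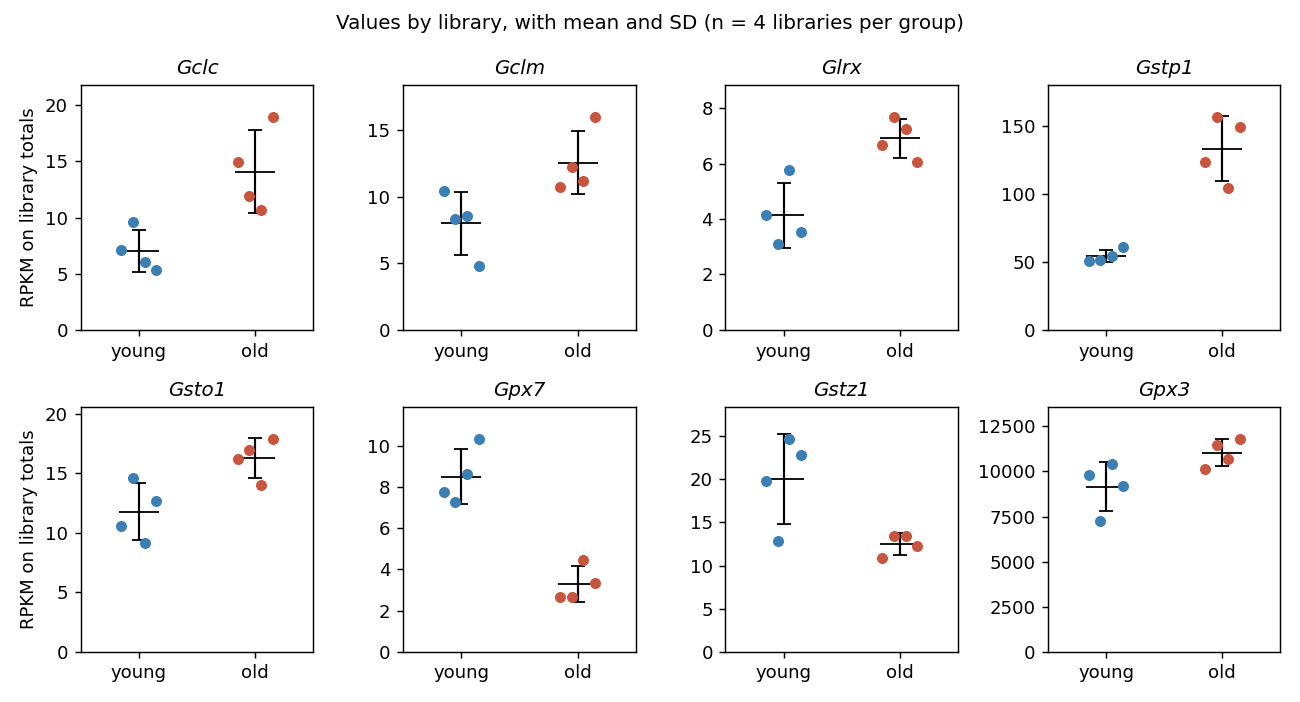
RPKM on library totals (vertical axes, each from 0) in the 4 young and 4 old libraries for the 7 genes past the threshold and for Gpx3, with 1 point per library, a bar at the mean and whiskers of 1 SD. Old and young points separate fully for Gclc, Gclm, Glrx, Gstp1 and Gpx7 and overlap for Gsto1, Gstz1 and Gpx3.

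Among the 7 transferases tested Gstp1 had the largest difference. Gstp1 (chromosome 19, 4035407 to 4037985, minus strand) had 50.5, 51.8, 54.8 and 60.8 RPKM in young and 124, 157, 105 and 149 RPKM in old libraries. The lowest old library stood well above the highest young one, and the ratio of the means was 2.45. It differed by 1.26 ± 0.14 in log2 (limma, adjusted p = 0.000391), and by 1.95 in deposited RPKM, and was called in all 19 alternatives, with 1.18 as the lowest estimate. A neighbouring near-copy, Gstp2, and a pseudogene, Gstp-ps, hold 484 of the 1940 stretches of 101 bases in Gstp1 transcripts, so reads could be split between them. Gstp2 itself was not called (0.37 ± 0.15; limma, adjusted p = 0.104), and Gstp1 stood at 8.73 to 12.7 times the level of Gstp2 in young and 15.9 to 21.3 times in old libraries.

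Gsto1, an omega-class transferase that reduces mixed disulphides, rose by 0.45 ± 0.15 (limma, adjusted p = 0.0446), with 1.10 on the deposited scale. It had 10.6, 14.6, 9.15 and 12.7 RPKM in young and 16.2, 17.0, 14.01 and 17.9 RPKM in old libraries, so that young library 2 overlapped the lowest old library. Omitting any of 6 libraries (young 1, 3 and 4 and old 1, 2 and 4) ended its call, reaching adjusted p = 0.123 (limma) without young library 1, and without the 2 young libraries with the fewest reads (limma, adjusted p = 0.0576). Thinned to equal reads, the libraries gave 0.33 (limma, adjusted p = 0.195). Gstz1, the zeta-class enzyme of tyrosine breakdown, fell by 0.61 ± 0.18 (limma, adjusted p = 0.0297), whereas deposited RPKM gave 0.04. It had 19.8, 12.9, 24.7 and 22.8 RPKM in young and 10.9, 13.5, 13.4 and 12.3 RPKM in old libraries, with young library 2 inside the old range. Its call was lost without any of young libraries 1, 3 and 4 and old libraries 1 and 4, reaching adjusted p = 0.0861 (limma) without young library 3, and with thinned reads (limma, adjusted p = 0.0578), and the estimate was -0.88 without the 2 young libraries with the fewest reads.

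The remaining transferases did not pass the test. Gstm1 (chromosome 3, 108012255 to 108017973, minus strand) had 295, 288, 374 and 313 RPKM in young and 325, 517, 378 and 339 RPKM in old libraries, a difference of 0.28 ± 0.16 (log2; limma, adjusted p = 0.222). Old library 2 was highest, and young library 3 lay above old libraries 1 and 4. Its neighbour Gstm2 had 0.24, Gstm5 -0.23 and the theta-class Gstt1 -0.29, with adjusted p-values (limma) of 0.327, 0.308 and 0.219, and the last 2 were positive on the deposited scale (0.42 and 0.39). Gstm1 and Gstm2 were called higher on that scale, with 0.97 and 0.92. Gstm1 kept a similar multiple of Gstm2, 6.39 to 8.38 in young and 6.33 to 8.33 in old libraries. Of the 5 transferases below the minimum, Gstt3 was called lower with a minimum of 1 RPKM (log2 fold change -0.76; limma, adjusted p = 0.01005), with 5.65 to 10.2 RPKM in young and 3.31 to 3.72 RPKM in old libraries. Another annotated locus, Gm20441, shares 425 of its 3935 stretches. The other 4, Gsta4, Gstm4, Gstt2 and Gstk1, were not called, at 2.35 to 6.69 RPKM in young and 2.19 to 5.37 RPKM in old libraries.

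The membrane transferase Mgst1, which works on lipids and foreign compounds, had 13.5, 20.004, 18.3 and 12.7 RPKM in young and 15.2, 15.4, 18.2 and 15.5 RPKM in old libraries and was not called (0.02 ± 0.15; limma, adjusted p = 0.938). On the deposited scale Mgst1 had 0.67 and was called higher. Mgst3 lay below the minimum, at 7.10, 5.72, 3.89 and 4.65 RPKM in young and 4.50, 2.27, 3.19 and 2.76 RPKM in old libraries. At 1 RPKM it was called lower (-0.60; limma, adjusted p = 0.0429), although old library 1 overlapped the young range.

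Of the 3 degradation genes above the minimum 0 were called on library totals, by limma-trend or limma-voom, and 1, Oplah, was lower at an unadjusted p under 0.05. As for the peroxidases, no share of all genes was computed at that threshold. Chac1, which cleaves cytosolic glutathione and is a stress-response gene, was the most abundant. It had 42.8, 27.8, 59.5 and 32.1 RPKM in young and 38.5, 33.3, 47.5 and 43.4 RPKM in old libraries, all old values lying within the young range (0.05 ± 0.21; limma, adjusted p = 0.881). On the deposited scale Chac1 had 0.73 and was called higher. Ggt7, a transpeptidase relative, had 10.0, 12.2, 14.6 and 10.5 RPKM in young and 10.8, 10.6, 11.2 and 11.3 RPKM in old libraries (-0.08 ± 0.13; limma, adjusted p = 0.665), and 0.55 in deposited RPKM. Oplah, which returns 5-oxoproline to glutamate, had -0.39 ± 0.15 (limma, adjusted p = 0.0709), and 0.23 in deposited RPKM. Without young library 4 it was called lower (limma, adjusted p = 0.0434). Ggt5, a transpeptidase that also acts on leukotriene C, was called lower at a minimum of 1 RPKM (-0.84; limma, adjusted p = 0.00856), with 2.22 to 3.20 RPKM in young and 0.620 to 1.18 RPKM in old libraries. Chac2 and Ggct were not called there.

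Of the mitochondrial carriers, Slc25a39, which imports glutathione, had 39.3, 43.5, 49.5 and 43.0 RPKM in young and 41.7, 41.6, 40.9 and 48.2 RPKM in old libraries. The difference was -0.02 ± 0.11 (limma, adjusted p = 0.909), and 0.66 in deposited RPKM, close to the median of all genes there. Its relative Slc25a40 had 1.46, 2.43, 1.53 and 1.78 RPKM in young and 1.46, 1.33, 0.912 and 0.837 RPKM in old libraries and was not called at 1 RPKM (-0.39; limma, adjusted p = 0.145).

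Lowering the minimum to 1 RPKM brought 37 of the 39 genes into the test, with 5 higher and 5 lower. The higher genes were those named above, and Ggt5, Gstt3 and Mgst3 joined Gpx7 and Gstz1. In that test 7.11% of all genes were higher and 20.5% lower, so lower calls among weakly expressed genes were frequent throughout the table. The groups did not overlap for 6 of the 23 genes tested at 5 RPKM, 4 with old above young (Gclc, Gclm, Glrx and Gstp1) and 2 below (Gpx7 and Gpx8), against 13.8% and 13.3% of all genes tested.

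**Figure D4:**
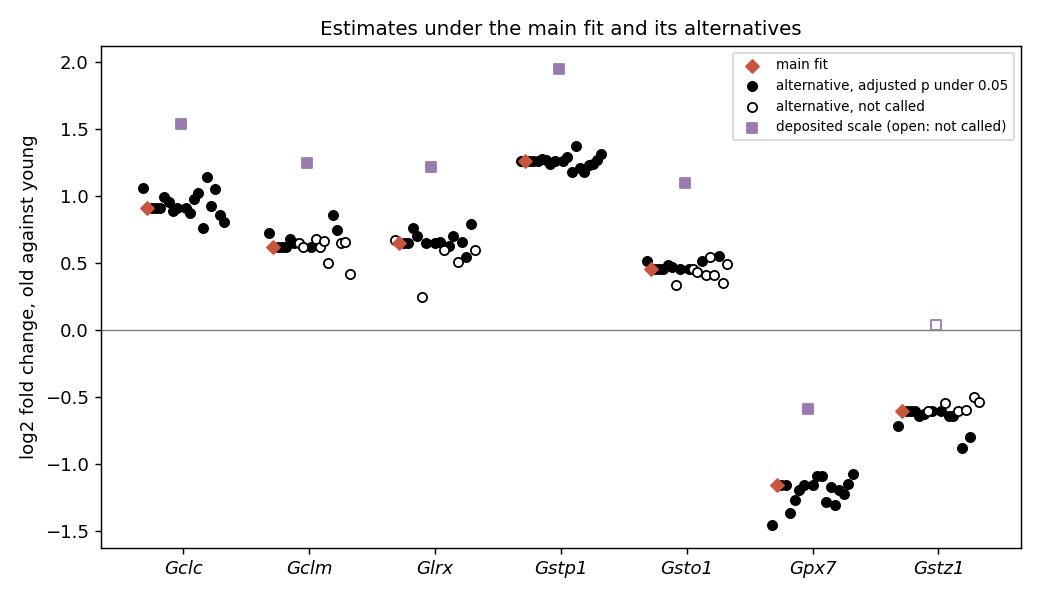
Log2 fold change of old against young (vertical axis) for the 7 genes past the threshold under the fit reported here (diamond), its alternatives (circles, open where not called) and the deposited scale (square, open where not called). Gclc and Gstp1 were called in all 19 alternatives and Gpx7 in the 18 that tested it, while Gclm, Glrx, Gsto1 and Gstz1 were not in several, and Gstz1 lies at 0.04 on the deposited scale.

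A further 63 genes around glutathione were listed by function and not by how they moved. Of these 31 were tested, 5 rose and 7 fell (16.1% and 22.6%, beside 12.3% and 12.5% of all genes tested). Among 17 tested users, exporters and suppliers of precursors 4 rose and 4 fell. Slc1a5, a glutamine carrier, rose by 0.96 ± 0.19, Mat2a, which makes S-adenosylmethionine, by 0.51 ± 0.12, and Slc3a2, the heavy chain that partners Slc7a11 and other carriers, by 0.48 ± 0.14. On the deposited scale these 3 had 1.64, 1.203 and 1.17. Old and young libraries did not overlap for any of the 3. The call of Slc3a2 was lost without any of young libraries 1 and 4 and the 4 old libraries, reaching adjusted p = 0.0757 (limma) without young library 4. Without the 2 young libraries with the fewest reads those of Slc3a2 and Mat2a were lost (limma, adjusted p = 0.112 and 0.0585).

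The enzymes that act on glutathione adducts of aldehydes moved in both directions. Glo1 and Hagh, the glyoxalases that clear methylglyoxal in series, fell by 0.53 ± 0.15 and 0.48 ± 0.11, with 25.7 to 42.2 and 10.7 to 13.03 RPKM in young and 21.5 to 25.1 and 8.07 to 8.29 RPKM in old libraries. Neither pair of groups overlapped. The call of Glo1 was lost without any of young libraries 1, 3 and 4 and old libraries 1 and 4, reaching adjusted p = 0.0710 (limma) without young library 3. In formaldehyde disposal Adh5, which oxidises the glutathione adduct, fell by 0.64 ± 0.12, while Esd, which releases glutathione in the next step, rose by 0.80 ± 0.15. Esd had 36.0 to 45.8 RPKM in young and 60.8 to 93.1 RPKM in old libraries, and Adh5 11.2 to 14.4 and 7.32 to 9.23 RPKM. Tst, a mitochondrial sulphurtransferase, fell by 0.54 ± 0.12. On the deposited scale Esd had 1.48, and Glo1, Hagh, Adh5 and Tst 0.14, 0.15, -0.01 and 0.07.

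Among 7 tested suppliers of NADPH, Pgd of the pentose phosphate pathway rose by 0.63 ± 0.16, with 5.47 to 7.01 RPKM in young and 7.84 to 12.7 RPKM in old libraries. Pgd passed the minimum only through the old libraries, with deposited means of 4.86 RPKM in young and 13.1 RPKM in old. Its call was lost without young library 1 (limma, adjusted p = 0.0505) and without the 2 young libraries with the fewest reads (0.0874). The isocitrate dehydrogenases Idh2 (mitochondrial) and Idh1 (cytosolic) fell by 1.43 ± 0.15 and 0.51 ± 0.17, with -0.76 and 0.13 on the deposited scale. Idh1 passed narrowly (limma, adjusted p = 0.0461), its groups overlapped, and it was not called by limma-voom (adjusted p = 0.0645), with thinned reads (0.0878), without the 2 young libraries with the fewest reads (0.151), or with any library but old library 3 left out (up to 0.117, without old library 4). Of 5 tested genes for selenocysteine insertion, which the TGA codons shown above require, 1 fell: the elongation factor Eefsec, by 0.56 ± 0.15 (0.03 on the deposited scale). It had 6.91 to 8.88 RPKM in young and 3.89 to 5.99 RPKM in old libraries, without overlap. Its call was lost with thinned reads (limma, adjusted p = 0.0875) and without young library 3 or old library 2 (up to 0.0568, without young library 3). Sephs2, which makes the selenium donor, had 0.57 and was not called by limma-trend (adjusted p = 0.0944), but limma-voom called it higher (0.75, adjusted p = 0.0371), as did limma-trend without young library 2. So did limma-trend without the 2 young libraries with the fewest reads (0.70, adjusted p = 0.0250) and on the deposited scale (1.16). Of 21 other members of the same enzyme families 2 were tested and 0 were called (limma). At an unadjusted p under 0.05 in limma-trend Gstp2 was higher and Txndc12, a thioredoxin-like protein of the endoplasmic reticulum, lower. No share of all genes was computed at that threshold. By limma-voom 1 was called, Txndc12 (adjusted p = 0.0455).

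The libraries carried the markers of the sorted cells, whose 14 genes summed to 3672 to 4552 RPKM in young and 3578 to 4366 RPKM in old libraries, Sdc4 being the highest. Single markers differed under that sum, with 5 of the 14 lower in all old than in all young libraries (Pax7, Cdh15, Calcr, Chodl and Fgfr4) and 1 higher (Myod1). Over all genes tested 13.3% were lower and 13.8% higher in this way, a share that leaves out genes below the minimum of 5 RPKM. It stands beside the counts of separated markers that follow. Pax7, the lineage factor, had 14.7 to 22.6 RPKM in young and 8.22 to 13.4 RPKM in old libraries, and Calcr, a receptor associated with quiescence, 44.0 to 62.4 and 14.4 to 21.3 RPKM. Myod1, a myogenic factor associated with activation, had 411 to 534 and 624 to 940 RPKM. Markers of other cell types were also present. Tenocyte markers (7 genes) summed to 197 to 305 RPKM in young and 514 to 1572 RPKM in old libraries, with Tnmd, Mkx, Thbs4, Comp and Fmod (5 of 7) higher in all old than in all young libraries. Fmod had 143 to 232 RPKM in young and 375 to 1158 RPKM in old libraries, Thbs4 25.5 to 46.0 and 86.2 to 259 RPKM, and Tnmd 11.5 to 20.5 and 22.4 to 69.3 RPKM. Scx had 0 to 0.806 and 0.154 to 0.395 RPKM, and Cilp2 0.855 to 2.30 and 0.233 to 1.28 RPKM. Fibroblast markers (13 genes) summed to 1918 to 2474 and 1510 to 2571 RPKM, with 0 separated upward and 2 downward. Sums in young and old libraries were 116 to 143 and 45.1 to 119 RPKM for endothelial (10 genes), 26.8 to 69.3 and 18.4 to 47.7 RPKM for leukocyte (10 genes) and 27.9 to 62.0 and 19.7 to 94.5 RPKM for erythroid markers (5 genes). For pericyte markers (8 genes) they were 210 to 257 and 110 to 237 RPKM, for muscle fibre (11 genes) 147 to 361 and 56.9 to 373 RPKM, and for Schwann markers (6 genes) 24.2 to 32.8 and 17.5 to 37.4 RPKM. Separated downward were 2 endothelial, 3 leukocyte, 1 erythroid, 1 pericyte and 2 muscle fibre markers, with 0 upward in each of these lists. Of the Schwann markers 1 was separated upward and 0 downward. The part of these other cells, or of the state of the sorted cells, in the differences of the glutathione genes was not tested.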

How the data were processed

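Polyadenylated RNA of 8 libraries was measured, 4 young and 4 old, each from 1 animal. The authors deposited RPKM values, made with Trim Galore, STAR, featureCounts (Subread) and edgeR on mm10/GRCm38, per the submitters' processing notes. Their versions and settings are not given in the sources available, and a SMARTer library of this kind does not mark strand. Of the genes with a read, 80.3% gave whole reads (tolerance 0.002) with their GENCODE exon length. For the others, among them Glrx, Gstp1, Gsto1 and Gstz1, the shortest length giving whole reads was searched. Their reads may therefore be too few by a common divisor, which leaves ratios between libraries unchanged. Thinning and limma-voom use the counts themselves, so their results for such genes may be affected. In 7124 genes the deposited table holds a small positive value where a library has no read, and 0 was restored. RPKM were then recomputed per total reads in genes.

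Ages were compared in R 4.3.3 with limma 3.58.1 (limma-trend) on log2(RPKM + 1), a pseudocount of 1, over 5703 genes with a mean deposited RPKM of at least 5. The design had foreseen this for RPKM. The method was tested on simulated data that gave all genes the same spread (dispersion 0.0201), unlike real genes. It recovered 70% of 1.5-fold and 96% of 2-fold changes (50 genes each), and called 13 unchanged genes. Changes of 1.5-fold or less may therefore be missed. Fold changes on the log2(RPKM + 1) scale understate changes of low genes. The members, lists, minimum and scaling were chosen with earlier results of these data known. Values by library are given for members past the threshold and for the 2 most abundant of each class. The alternatives were other scalings, minimums, pseudocounts, thinned reads, left-out libraries, a replicate block and limma-voom. Gene positions, exons and transcripts are from GENCODE M21, promoters from RefSeq GRCm38.p6. Same-numbered young and old animals are different animals.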

Additional observations from a re-analysis of the deposited data

Results flagged for a closer look

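In 4 of the 46 groups of 4 libraries examined (23 tested genes at 2 ages), 1 library lay far from the other 3, where chance flags about 1 in 20. Cbs stood at 13.04 RPKM in old library 2 against 9.19 to 9.75 RPKM in the other old libraries. Gstm2 stood at 58.5 RPKM in young library 3 against 37.4 to 39.8 RPKM in the other young libraries. Mgst1 stood at 18.2 RPKM in old library 3 against 15.2 to 15.5 RPKM. Slc25a39 stood at 48.2 RPKM in old library 4 against 40.9 to 41.7 RPKM. None of these 4 genes was called on library totals.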

How the results depend on the processing

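The deposited scaling, 1 of 19 alternatives, moved the calls to 3882 higher and 64 lower over all genes and to 16 and 1 among the glutathione genes. There 8 of their estimates changed sign, to 0.55 for Ggt7, 0.31 for Gpx1, 0.40 for Gpx8, 0.42 for Gstm5, 0.39 for Gstt1, 0.0407 for Gstz1, 0.23 for Oplah and 0.66 for Slc25a39. Of the other pathway genes called lower, Adh5 and Idh2 kept a negative estimate there, while Glo1 (0.14), Hagh (0.15), Tst (0.0749), Idh1 (0.13) and Eefsec (0.0292) changed sign. The count of lower genes moved with the minimum level. It was 2280 (5 glutathione genes) at 1 RPKM, 384 (1) at 10 RPKM and 9423 (9) without one. Thinning to equal reads left 2 of the 23 glutathione genes higher and 1 lower, and Ggt7 had 0.15. Over all genes tested 561 (9.84%) were higher and 522 (9.15%) lower in that setting. Without the 2 young libraries with the fewest reads 453 genes were higher, 3 of them glutathione genes, and Chac1 had -0.11 and Gpx4 -0.0884. By limma-voom, chosen after seeing the data, Gpx4 had -0.0129.

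With 1 library left out in turn, 475 to 795 genes were higher and 476 to 802 lower, among them 2 to 4 and 1 to 2 glutathione genes. Estimates near 0 changed sign, spanning -0.10 to 0.25 for Chac1, -0.15 to 0.0156 for Ggt7, -0.11 to 0.12 for Gpx4, -0.0804 to 0.13 for Mgst1 and -0.0755 to 0.0369 for Slc25a39.

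The replicate block gave 635 higher and 656 lower genes, with 4 and 2 glutathione genes, Gclm being lost (limma, adjusted p = 0.0966). Deviations of same-numbered libraries correlated at -0.16, -0.06, 0.38 and -0.23, and those of differently numbered libraries at -0.39 to 0.40. The same-numbered values lie within that range. Whether same-numbered libraries shared a batch was not tested. The planned edgeR and DESeq2 fits on recovered reads were not run, and limma-voom took their place. The young depth limits genes such as Glrx, which had 8 recovered reads in 1 library, a count that may be too low. The cause of these shifts was not tested.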
